A study of Homo sapiens with 9 samples.

Results

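The TGF-beta ligands and receptors, their latent-complex partners LRRC32 and LTBP1, the inhibitory SMAD7 and the induced matrix protein TGFBI were followed in 3 groups of lung cancer cells, parental A549, OSK-A549-SN and OSK-A549-Colony. The 10 genes are covered by 11 probes of the 50599 on the array, and the array carries 21743 gene names in all. A probe was a member if its RefSeq transcript belongs to 1 of the 10 genes. LTBP1 has 2 probes, both designed on the same transcript, and each other gene has 1. The set was chosen from the measured values of LRRC32, which was among the genes with the largest decreases from parental A549 to OSK-A549-Colony. The values of that comparison are therefore given as a description, and no p is given for LRRC32, whose calls are counted as a description only. The comparisons share arrays in pairs, so they are not independent of each other.

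TGF-beta is secreted as a latent complex in which the mature dimer stays caged by its own propeptide. LRRC32, also called GARP, tethers this complex to the cell surface, whereas latent TGF-beta binding proteins such as LTBP1 tether it to the extracellular matrix. Once released, the ligand joins the type II receptor TGFBR2 to the type I receptor TGFBR1, which phosphorylates SMAD2 and SMAD3. SMAD7 is induced by the same signal and blocks the type I receptor. In lung adenocarcinoma lines such as A549, TGF-beta is widely used to induce epithelial-mesenchymal transition.

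Total RNA was hybridised to 9 single-colour arrays, 3 per group. A549 is an established human lung adenocarcinoma cell line. Parental A549 cells carried no vector and were at passage P98, P98 and P99 in replicates 1 to 3. The OSK-A549-SN and OSK-A549-Colony cells both came from A549 cells given OCT3/4, SOX2 and KLF4 by retroviral pMXs vectors, and both were at passage P106, P107 and P106. The SN cells were the spindle-shaped cells that trypsin released first, and the Colony cells were those that stayed on the dish. No array of cells with an empty or EGFP vector was analysed here, and passage and transduction cannot be told apart. Each array holds RNA of a mixed population, so fewer cells with a transcript and less of it per cell cannot be told apart either.

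Values are log2 intensities relative to the 75th percentile of the array, which lay between 217.5 and 270.6, and 25809 to 29317 probes per array were well above background. A level of one probe cannot be set against that of another. Differences were fitted with limma over all probes detected on at least 1 of the 6 arrays compared, and a call needed a p under 0.05 after Benjamini-Hochberg adjustment together with more than a 2-fold difference. All 6 epithelial marker genes (KRT7, KRT8, KRT18, EPCAM, CDH1 and CLDN4) were well above background on all 9 arrays. Among the 4 alveolar type 2 genes, SFTPC and NAPSA were well above background on all 9 arrays, SFTPB on 2 and NKX2-1 on 0. Of the 5 endothelial genes, CDH5 and VWF were on all 9, KDR on 1, and PECAM1 and TEK on 0. Of the 5 fibroblast genes, COL1A1 was on 3 arrays, and COL1A2, PDGFRB, THY1 and DCN on 0. Over the 9 arrays the summed level, relative to the 75th percentile, was 1470 to 1835 for the epithelial genes. It was 0.417 to 0.580 for the alveolar type 2, 0.202 to 0.453 for the endothelial and 0.0672 to 0.141 for the fibroblast genes.

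LRRC32 (probe A_24_P389916) was measured well above background in parental A549 cells only. Its intensity was 27.8, 27.3 and 67.9 on the parental arrays, all well above background. It was 2.31, 3.18 and 5.45 in OSK-A549-Colony and 4.62, 7.46 and 2.38 in OSK-A549-SN, with no array of either group well above background. Parental replicate 3, the array at passage P99, stood above the other two parental arrays, and every transduced array lay below every parental array. The transduced groups overlapped.

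On the log2 scale the mean of LRRC32 was -2.70 with an SD of 0.88 in parental A549, -5.78 with an SD of 0.99 in OSK-A549-SN and -6.14 with an SD of 0.65 in OSK-A549-Colony (n = 3 each). The fitted difference from parental A549 was -3.45 (standard error 0.54) in OSK-A549-Colony and -3.08 (standard error 0.63) in OSK-A549-SN. Since the transduced values were not well above background, these differences rest partly on background readings. For nominal bounds, each dim array was raised to its lowest intensity well above background. Mean LRRC32 was then 3.58-fold lower in OSK-A549-Colony and 3.79-fold lower in OSK-A549-SN. These are not strict limits, since another probe not well above background can lie above that intensity. After normexp background correction with an offset of 50, the difference was -0.59 in OSK-A549-Colony, where LRRC32 was then not called, and -0.56 in OSK-A549-SN. That offset exceeds the LRRC32 intensity on every array but parental replicate 3, so it draws the values together. Little can therefore be read from the missing call. No fold is given between the transduced groups, because neither was well above background.

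**Figure D1:**
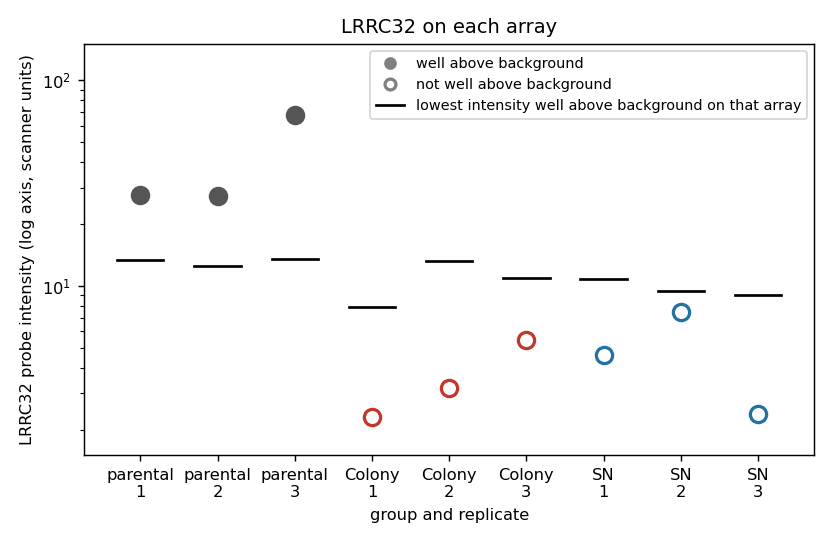
Intensity of the LRRC32 probe on each of the 9 arrays (log axis, scanner units). Filled points are well above background and open points are not, and the short line marks the lowest intensity well above background on that array. The 3 parental arrays lie above their lines and the 6 transduced arrays below theirs.

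Among the named genes called as decreases from parental A549 to OSK-A549-Colony, without overlap and well above background on every parental array, those nearest to LRRC32 by fitted difference were ANKRD34C-AS1 at -3.90 and SOX9-AS1 at -2.98. LRRC32 and the 3 genes with larger fitted decreases were well above background on 0 OSK-A549-Colony arrays, so their order rests on background readings and is not read. Over the 9 arrays the named probes whose log2 values followed LRRC32 most closely, among 20226, were FOXJ3 (Pearson's r = 0.995), RPAIN (0.989), RAB24 (0.987), CCNB1IP1 (0.987) and MOCS1 (0.984). All 5 were well above background on all 9 arrays, while 6 of the 9 LRRC32 values were not, and the points share 3 groups and a single high parental array. The mean of FOXJ3 was 2.59 and 2.62 in the Colony and SN arrays against 2.86 in the parental ones, so its range was far narrower than that of LRRC32.

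LRRC32 is best known from regulatory T cells and platelets, so markers of these cells are given beside it. Of the T cell genes, CD3E was well above background on 2 arrays, FOXP3 on 1, CD2 on 1, and CD3D and PTPRC on all 9. The summed level of the 5 T cell genes, relative to the 75th percentile, was 0.309 to 0.388 in parental A549, 0.256 to 0.339 in OSK-A549-Colony and 0.310 to 0.555 in OSK-A549-SN. Of the platelet genes, PPBP was on 0 arrays, ITGA2B on 8, and PF4 and GP9 on all 9. The summed level of the 4 platelet genes was 1.31 to 1.69 in parental A549, against 0.893 to 0.962 in OSK-A549-Colony and 0.898 to 1.08 in OSK-A549-SN. The platelet sum was therefore higher on every parental array, as LRRC32 was, and its part in the LRRC32 difference was not tested.

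LTBP1, which stores latent TGF-beta in the matrix, was the other member of the latent complex. It was well above background on all 9 arrays with both probes. Among the 9 members with an entry in the RefSeq promoter table, the upstream windows of LTBP1, TGFB2 and SMAD7 are shown, since besides LRRC32 these genes differed most between OSK-A549-Colony and parental A549. Each window holds the 250 bases before the most upstream annotated start (GRCh38.p14, written 5′ to 3′ on the strand of the gene), and capitals mark a matched motif. The motifs searched, on both strands, were CAGACA (Smad box), TGACGTCA (cAMP response element), TGACTCA (AP-1 site) and CCGCCC (Sp1 box). They occur in 13.6%, 1.65%, 4.2% and 42.6% of all 35116 windows of this length. The LTBP1 window lies at chr2:32946703-32946952 on the plus strand and holds the cAMP response element letters 94 bases before the start. A match is a description of letters and not of a bound site.
LTBP1: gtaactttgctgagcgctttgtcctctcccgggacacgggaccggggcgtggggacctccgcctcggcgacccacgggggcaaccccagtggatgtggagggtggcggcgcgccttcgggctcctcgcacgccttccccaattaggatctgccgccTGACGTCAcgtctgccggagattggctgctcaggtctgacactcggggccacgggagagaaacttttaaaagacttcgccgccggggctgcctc

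With probe A_23_P43810, LTBP1 was at -0.55, -0.16 and 0.08 in parental A549, at -0.74, -1.33 and -1.64 in OSK-A549-Colony and at -0.19, -0.57 and -1.02 in OSK-A549-SN. With probe A_33_P3304655 it was at -2.33, -1.99 and -1.92, at -2.60, -2.84 and -3.45, and at -1.74, -2.36 and -3.23 in the same groups. Both probes put every OSK-A549-Colony array below every parental array, while OSK-A549-SN overlapped with both. The difference between OSK-A549-Colony and parental A549 was -1.03 (standard error 0.28) with A_23_P43810 and -0.88 (standard error 0.25) with A_33_P3304655, and the first is a 2.04-fold lower level. Neither was called. After normexp correction the second was -0.41.

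In OSK-A549-SN against parental A549 the 2 LTBP1 probes differed by -0.39 and -0.36, with adjusted p = 0.450 and 0.611 from limma. Without OSK-A549-SN replicate 3, which was alone on its slide, the values were -0.17 and 0.03, and without OSK-A549-SN replicate 1 they were -0.59 and -0.71. The first was -0.24 without parental replicate 3. OSK-A549-Colony differed from OSK-A549-SN by -0.64 (95% interval -1.41 to 0.13, adjusted p = 0.317 from limma) and -0.52 (95% interval -1.59 to 0.55, adjusted p = 0.517). With each array left out, the first lay between -0.89 and -0.44 and the second between -0.91 (without OSK-A549-SN replicate 3) and -0.17 (without OSK-A549-SN replicate 1). Leaving out OSK-A549-Colony replicate 3 put the second at -0.27. The intervals span 0 and also reach a more than 2-fold lower level in OSK-A549-Colony.

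Of the ligands, TGFB2 had higher values in OSK-A549-Colony than on any parental array, TGFB1 overlapped between all groups, and so did INHBA. TGFB1 and TGFB2 encode TGF-beta isoforms, and INHBA encodes the activin A subunit, a ligand of the same superfamily that signals through its own receptors. The TGFB2 window, chr1:218345086-218345335 on the plus strand, holds the Smad box letters 53 bases before the start.
TGFB2: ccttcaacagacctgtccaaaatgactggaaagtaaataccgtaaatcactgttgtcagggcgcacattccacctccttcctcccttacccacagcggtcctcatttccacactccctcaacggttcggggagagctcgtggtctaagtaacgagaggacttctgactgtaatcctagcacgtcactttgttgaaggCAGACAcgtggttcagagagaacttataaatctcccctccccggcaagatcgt

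TGFB2 was at -1.56, -1.24 and -0.99 in parental A549, at -0.79, -0.49 and -0.55 in OSK-A549-Colony and at -0.95, -1.01 and -0.67 in OSK-A549-SN. Every OSK-A549-Colony array lay above every parental array, and OSK-A549-SN overlapped with both groups. The difference from parental A549 was 0.65 (standard error 0.18), a 1.57-fold higher level, in OSK-A549-Colony. OSK-A549-SN differed from parental A549 by 0.38 (standard error 0.20, adjusted p = 0.324 from limma), or 0.23 without parental replicate 1. OSK-A549-Colony minus OSK-A549-SN was 0.27 (95% interval -0.07 to 0.61, adjusted p = 0.334 from limma).

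TGFB1 was at 0.96, 1.31 and 1.84 in parental A549, at 0.82, 1.02 and 0.95 in OSK-A549-Colony and at 1.14, 1.43 and 1.02 in OSK-A549-SN. The parental arrays spread most and held both a value within the OSK-A549-Colony range and the highest value of all, parental replicate 3. The difference from parental A549 was -0.44 (standard error 0.23) in OSK-A549-Colony, where it was -0.21 without parental replicate 3. In OSK-A549-SN it was -0.18 (adjusted p = 0.705 from limma), and 0.05 without that array. OSK-A549-Colony differed from OSK-A549-SN by -0.26 (95% interval -0.59 to 0.07, adjusted p = 0.341 from limma), or -0.14 without OSK-A549-SN replicate 2. None of these differences was called.

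INHBA was at -2.87, -2.88 and -3.42 in parental A549, at -2.62, -2.74 and -3.55 in OSK-A549-Colony and at -2.23, -2.43 and -3.04 in OSK-A549-SN. Replicate 3 was the lowest array in each group, and the groups overlapped. The difference from parental A549 was 0.09 (standard error 0.30) in OSK-A549-Colony and 0.49 (standard error 0.27, adjusted p = 0.361 from limma) in OSK-A549-SN. The former turned to -0.09 without parental replicate 3, -0.09 without OSK-A549-Colony replicate 1 and -0.02 without OSK-A549-Colony replicate 2, and was 0.38 without OSK-A549-Colony replicate 3. The latter was 0.31 without parental replicate 3, 0.32 without OSK-A549-SN replicate 1 and 0.17 after normexp correction. OSK-A549-Colony differed from OSK-A549-SN by -0.40 (95% interval -1.22 to 0.42, adjusted p = 0.516 from limma). That value was -0.11 without OSK-A549-Colony replicate 3, -0.23 without OSK-A549-SN replicate 1 and -0.64 without OSK-A549-SN replicate 3.

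**Figure D2:**
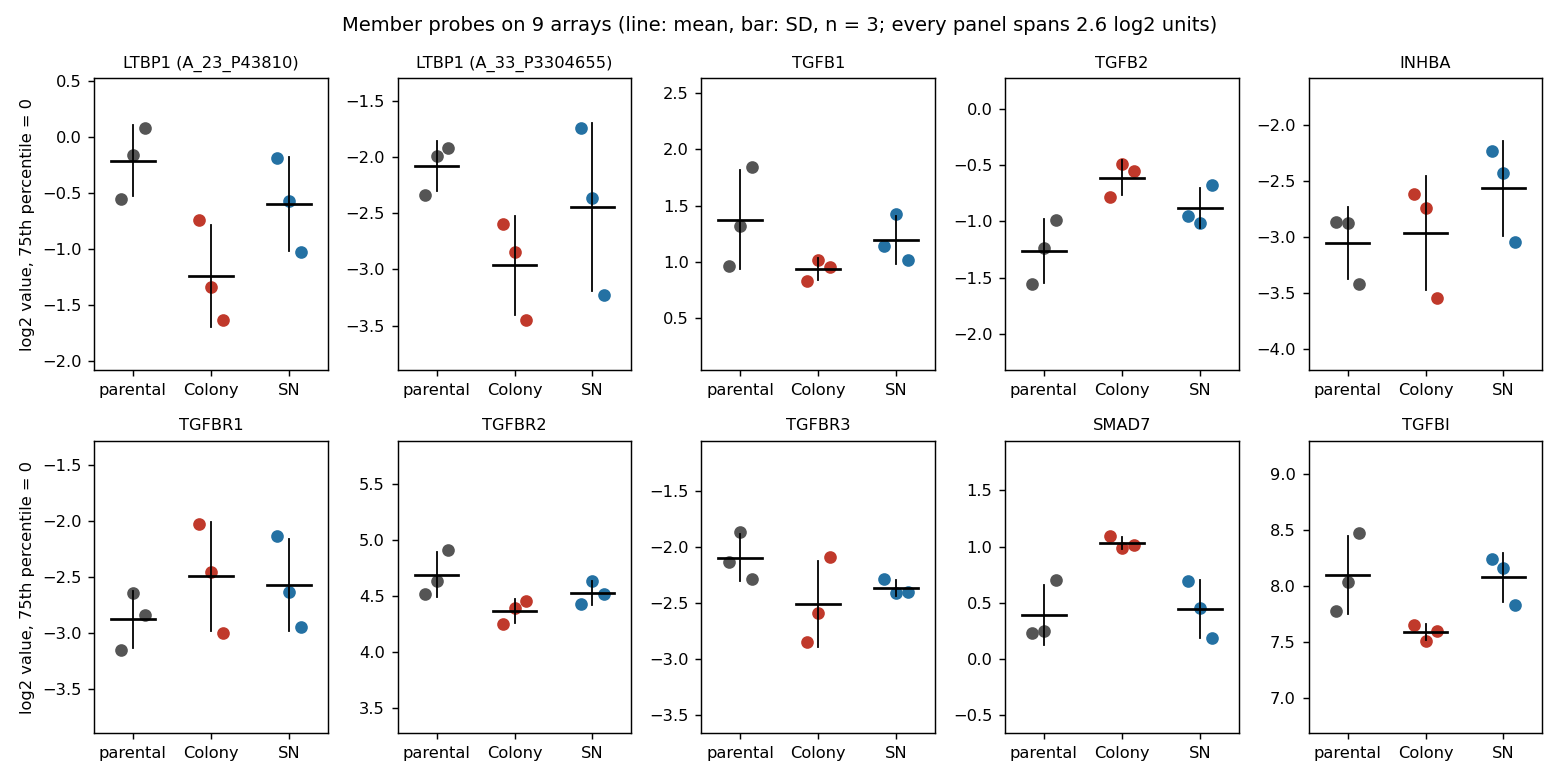
Log2 value relative to the 75th percentile of the array for the 10 member probes other than LRRC32, with 1 point per array, the group mean as a line and the SD as a bar (n = 3). Every panel spans the same range of 2.6 log2 units around its own centre. The OSK-A549-Colony arrays lie above all others for SMAD7 and below all others for TGFBI.

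Of the 3 member receptors, none was called in any comparison, and the largest difference in size was -0.41. TGFBR2, the ligand-binding type II receptor, was at 4.52, 4.64 and 4.91 in parental A549, at 4.25, 4.40 and 4.46 in OSK-A549-Colony and at 4.43, 4.64 and 4.52 in OSK-A549-SN. All OSK-A549-Colony arrays lay below the parental ones, with a difference of -0.32 (standard error 0.14) that was -0.21 without parental replicate 3. In OSK-A549-SN the difference from parental A549 was -0.16 (adjusted p = 0.577 from limma), which was -0.05 without parental replicate 3 and -0.24 without parental replicate 1. OSK-A549-Colony minus OSK-A549-SN was also -0.16 (95% interval -0.41 to 0.09, adjusted p = 0.421 from limma), or -0.10 without OSK-A549-Colony replicate 1 and -0.11 without OSK-A549-SN replicate 2.

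TGFBR1, the signalling type I receptor, was at -3.15, -2.64 and -2.83 in parental A549, at -2.03, -2.45 and -2.999 in OSK-A549-Colony and at -2.13, -2.63 and -2.94 in OSK-A549-SN. The 3 groups overlapped. The difference from parental A549 was 0.38 (standard error 0.28) in OSK-A549-Colony and 0.31 (adjusted p = 0.516 from limma) in OSK-A549-SN. With each array left out, the former lay between 0.15 and 0.63, the values without OSK-A549-Colony replicates 1 and 3. The latter was 0.09 without OSK-A549-SN replicate 1, 0.17 without parental replicate 1 and 0.49 without OSK-A549-SN replicate 3. After normexp correction the former was 0.12 and the latter 0.08. OSK-A549-Colony minus OSK-A549-SN was 0.08 (95% interval -0.72 to 0.87, adjusted p = 0.905 from limma), and it changed sign without OSK-A549-Colony replicate 1 (-0.16) or OSK-A549-SN replicate 3 (-0.11).

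TGFBR3, or betaglycan, presents ligand to the signalling receptors. It was at -2.14, -1.87 and -2.29 in parental A549, at -2.85, -2.59 and -2.09 in OSK-A549-Colony and at -2.29, -2.41 and -2.40 in OSK-A549-SN. Every OSK-A549-SN array was below every parental array, by a margin in the third decimal, while OSK-A549-Colony overlapped with both. The difference from parental A549 was -0.41 (standard error 0.23) in OSK-A549-Colony and -0.27 (standard error 0.15, adjusted p = 0.365 from limma) in OSK-A549-SN. The former was -0.24 without OSK-A549-Colony replicate 1 and -0.62 without OSK-A549-Colony replicate 3, and the latter was -0.16 without parental replicate 2. After normexp correction the former was -0.16 and the latter -0.10. OSK-A549-Colony minus OSK-A549-SN was -0.14 (95% interval -0.65 to 0.37, adjusted p = 0.712 from limma) and turned to 0.03 without OSK-A549-Colony replicate 1, while it was -0.35 without OSK-A549-Colony replicate 3.

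SMAD7 and TGFBI are both induced by TGF-beta signalling in many cells. The OSK-A549-Colony arrays did not overlap with either other group, lying above them for SMAD7 and below them for TGFBI, and neither gene was called in any comparison. SMAD7 is the inhibitory SMAD, and TGFBI encodes a secreted matrix protein that binds collagen and integrins. The SMAD7 window lies at chr18:48950966-48951215 on the minus strand and holds none of the 4 motifs. It is shown without capitals.
SMAD7: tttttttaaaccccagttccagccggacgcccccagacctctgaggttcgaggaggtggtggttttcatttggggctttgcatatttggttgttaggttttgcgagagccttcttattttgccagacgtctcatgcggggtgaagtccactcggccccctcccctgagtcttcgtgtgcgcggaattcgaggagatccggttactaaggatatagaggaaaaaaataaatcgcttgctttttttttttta

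SMAD7 was at 0.23, 0.25 and 0.70 in parental A549, at 1.09, 0.98 and 1.02 in OSK-A549-Colony and at 0.69, 0.45 and 0.19 in OSK-A549-SN. The lowest OSK-A549-Colony array was above the highest array of both other groups, and parental A549 and OSK-A549-SN overlapped. The difference of OSK-A549-Colony was 0.64 (standard error 0.16), or 1.56-fold, against parental A549. Against OSK-A549-SN it was 0.59 (standard error 0.15, 95% interval 0.23 to 0.95). That difference had an unadjusted p of 0.00788 and did not pass over all probes (adjusted p = 0.145 from limma). OSK-A549-SN and parental A549 differed by 0.05 (adjusted p = 0.896 from limma), with a sign that turned when parental replicate 1 or 2 or OSK-A549-SN replicate 1 was left out (-0.07 to -0.02).

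TGFBI was at 7.78, 8.04 and 8.47 in parental A549, at 7.65, 7.51 and 7.60 in OSK-A549-Colony and at 8.24, 8.16 and 7.83 in OSK-A549-SN. Every OSK-A549-Colony array was below all arrays of the other groups. The difference of OSK-A549-Colony was -0.51 (standard error 0.19) against parental A549, or -0.32 without parental replicate 3, and -0.49 (standard error 0.13, 95% interval -0.82 to -0.16) against OSK-A549-SN. The latter had an unadjusted p of 0.0115 and did not pass over all probes (adjusted p = 0.163 from limma). OSK-A549-SN differed from parental A549 by -0.02 (adjusted p = 0.967 from limma), and by 0.17 without parental replicate 3 or 0.10 without OSK-A549-SN replicate 3.

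Counted together, 1 of the 11 member probes was called in OSK-A549-Colony against parental A549, the LRRC32 probe that chose the set, where 3.7% of 30869 probes were called. That call was absent when parental replicate 2 or any 1 of the 3 OSK-A549-Colony arrays was left out and with the replicate number as a block. It was also absent after normexp correction, whose offset shrinks differences of dim probes. With each array left out the fitted LRRC32 difference lay between -3.78 and -2.94, on readings of which no transduced one was well above background. When a probe had to be well above background on all 3 arrays of at least 1 group, LTBP1 (A_23_P43810) was called as well. Without overlap between the groups were 7 of the 11, namely LRRC32, both LTBP1 probes, TGFBI and TGFBR2 lower and SMAD7 and TGFB2 higher, beside 41.6% of all probes tested. The median difference of the 10 probes other than LRRC32 was -0.36, against -0.03 over all probes tested.

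In OSK-A549-SN against parental A549, limma called 0 of the 11 member probes, where 1.55% of 32223 probes were called. At an unadjusted p under 0.05 were 0 of the 10 probes other than LRRC32, beside 21.6% of all probes. The groups did not overlap for LRRC32 and TGFBR3, beside 32.1% of all probes. The median of the 10 probes was -0.09, against 0.08 over all.

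In OSK-A549-Colony against OSK-A549-SN, limma called 0 of 10 member probes, and 0% of the 31748 probes tested, the smallest adjusted p being 0.0930. At an unadjusted p under 0.05 were 2 of the 10, SMAD7 and TGFBI, beside 19.5% of all probes. The same 2 did not overlap between the groups, beside 30.8% of all probes. The median of the 10 was -0.21, against -0.06 over all. These shares lie close to the background.

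**Figure D3:**
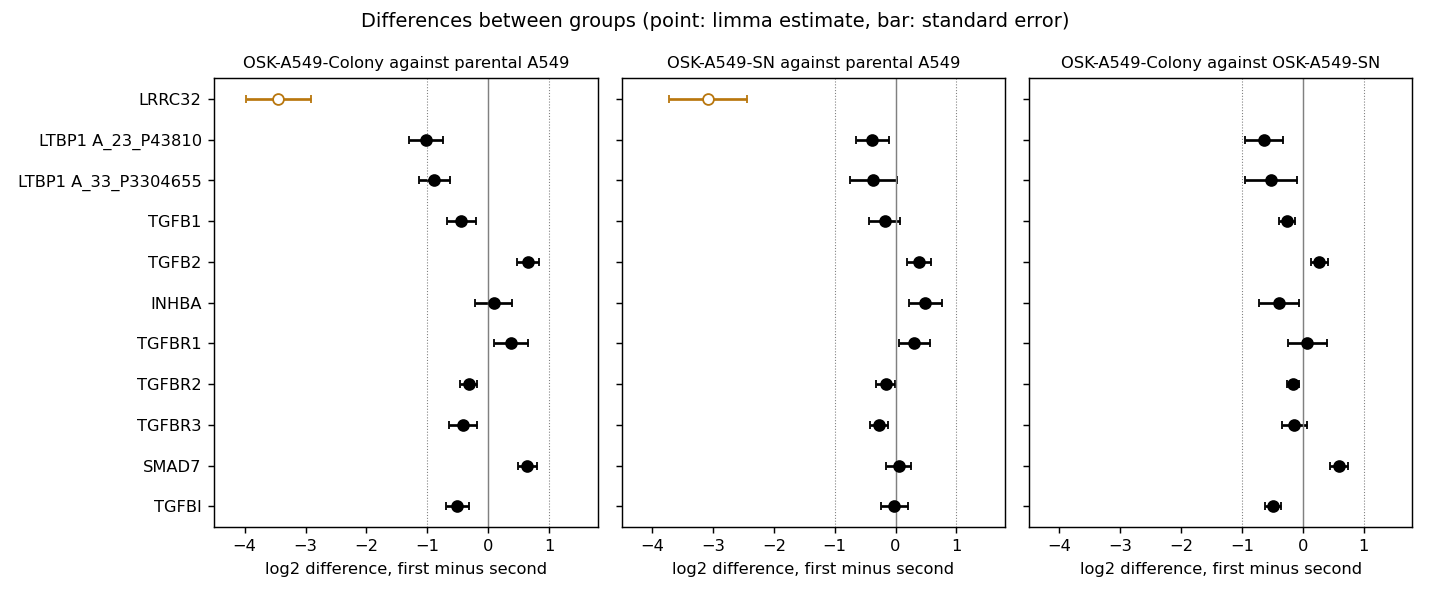
Fitted log2 difference between groups for the 11 member probes (first group minus second, point with its standard error), in 3 panels for the 3 comparisons. Dotted lines mark a 2-fold difference. The open point marks LRRC32, which was not well above background in either transduced group and is not shown between them. Apart from LRRC32, the point of LTBP1 with A_23_P43810 lies past a 2-fold line in the panel of OSK-A549-Colony against parental A549.

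A list of 64 further genes of the pathway, in 5 roles, was set beside the members, with each gene represented by its brightest named probe. In OSK-A549-Colony against parental A549, 54 were tested and 1 was called, the target gene TPM1, which was higher and encodes an actin-binding tropomyosin. That is 1.85% of the list, beside 3.91% of all 16362 named genes. The other 12 target genes tested were not called, and neither were any of the 10 storage and activation genes, 9 ligands and antagonists, 7 receptors and 15 SMADs and regulators. The median difference over the list was -0.18, against 0.03 over all named genes. A positive difference was found for 22 of the 54 genes, beside 8638 of the 16362 named genes. The groups did not overlap for 6 genes that were higher and 13 that were lower in OSK-A549-Colony. That is 35.2% of the 54, beside 45.5% of all named genes.

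TPM1 was at 3.63, 3.81 and 4.14 in parental A549, at 5.23, 5.10 and 5.39 in OSK-A549-Colony and at 4.65, 4.68 and 4.40 in OSK-A549-SN. The 3 groups were fully separate, with OSK-A549-SN in between. Its 3 probes were all called in OSK-A549-Colony against parental A549, with differences of 1.38, 1.28 and 1.19. With the brightest probe, OSK-A549-SN differed from parental A549 by 0.72 (adjusted p = 0.105 from limma) and OSK-A549-Colony from OSK-A549-SN by 0.66 (adjusted p = 0.111). The TPM1 call was absent when parental replicate 2 or any 1 of the 3 OSK-A549-Colony arrays was left out, and with the replicate number as a block. The difference lay between 1.26 and 1.52 with each array left out.

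**Figure D4:**
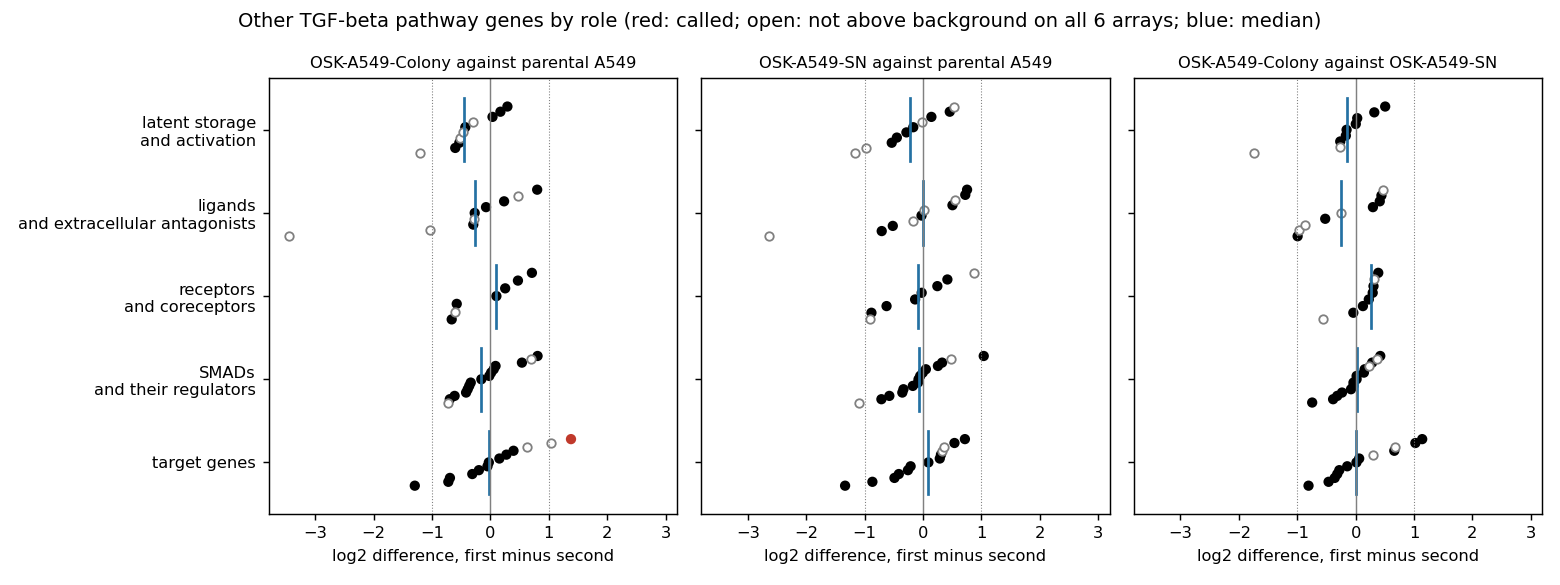
Fitted log2 difference of each further TGF-beta pathway gene by role, in 3 panels for the 3 comparisons (1 point per gene). The red point was called, open points were not well above background on all 6 arrays, the blue line is the median of the role, and dotted lines mark a 2-fold difference. The red point is TPM1 in OSK-A549-Colony against parental A549.

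In OSK-A549-SN against parental A549, limma called 0 of 56 genes of this list, beside 1.64% of all named genes, and the median was -0.06 against 0.09. At an unadjusted p under 0.05 were 14 of the 56, beside 22.5% of all named genes. Among genes that all 6 arrays measured well above background, those with the largest difference in each role were FN1, PMEPA1, ACVR1B, GDF11 and FURIN. FN1, which encodes the matrix protein fibronectin, was at -1.28, -1.09 and -0.86 in parental A549 and at -2.87, -1.95 and -2.43 in OSK-A549-SN. The groups did not overlap and differed by -1.33 (adjusted p = 0.0701 from limma). PMEPA1, a SMAD-binding feedback inhibitor, was at 2.01, 2.34 and 2.91 in parental A549 and at 3.50, 3.53 and 3.35 in OSK-A549-SN. Its groups were separate and differed by 1.04 (adjusted p = 0.0940 from limma), with 0.95 from its second probe. ACVR1B, the type I activin receptor, differed by -0.88 (adjusted p = 0.0892 from limma), and GDF11, an activin-like ligand, by 0.75 (adjusted p = 0.0857). FURIN, the protease that cleaves the TGF-beta precursor, differed by -0.54 (adjusted p = 0.365 from limma), and by -0.26 without parental replicate 3 or -0.36 without OSK-A549-SN replicate 3. After normexp correction FN1 was at -0.72, ACVR1B at -0.32 and GDF11 at 0.39.

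In OSK-A549-Colony against OSK-A549-SN, limma called 0 of 54 genes of the list and 0% of all named genes, with medians of 0.02 and -0.03. At an unadjusted p under 0.05 were 16 of the 54, beside 20.8% of all named genes. Again among genes detected on all 6 arrays, CCN2, a matricellular target gene, had the largest difference of the targets. It was at -0.18, -0.34 and 0.09 in OSK-A549-Colony and at -0.96, -1.26 and -1.64 in OSK-A549-SN. Its groups were separate and differed by 1.14 (adjusted p = 0.110 from limma). The activin antagonist FST had the largest difference among the ligands and antagonists so detected, -0.99 (adjusted p = 0.354 from limma), with OSK-A549-Colony arrays at -3.20, -4.01 and -2.22. With each array left out it lay between -1.46 and -0.56, and it was at -0.56 without OSK-A549-Colony replicate 2 and -0.66 without OSK-A549-SN replicate 3. FOXH1, a SMAD partner in transcription, differed by -0.74 (adjusted p = 0.181 from limma). ITGB8, an integrin chain that activates latent TGF-beta, differed by 0.51 (adjusted p = 0.197 from limma), and the pseudoreceptor BAMBI by 0.39 (adjusted p = 0.179). After normexp correction CCN2 was at 0.72, FST at -0.40, FOXH1 at -0.41 and ITGB8 at 0.12. The lowest adjusted p of CCN2 over the alternatives was 0.0354 from limma, where the difference was under 2-fold and so not called. Over the whole list the groups did not overlap for 10 genes that were higher and 7 that were lower in OSK-A549-Colony, or 31.5% of the 54, beside 33% of all named genes.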

How the data were processed

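RNA was measured on 9 single-colour Agilent SuperPrint G3 arrays, and the groups were taken from the sample labels. The authors deposited the intensity of each spot from Agilent Feature Extraction 11.5.1.1, already background-subtracted and not scaled between arrays. The authors also deposited a log2 table of the same arrays, in which 100% of probes matched these values after a shift by array (tolerance 0.001). Log2 intensities without outlier-flagged spots or control spots were averaged per probe, less the 75th percentile of each array. Gene names came from RefSeq accessions (30275 of 50599 probes).

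Comparisons were fitted with limma 3.58.1 (lmFit and eBayes) in R 4.3.3, each on its own 6 arrays, and p-values were adjusted over all probes tested. The scripts were tested on simulated data. The members and gene lists were chosen with earlier results of these data known. Named were all members, pathway genes called in any comparison, the gene of largest difference per role in the comparisons that did not choose LRRC32, among genes well above background on all 6 arrays, and the 5 genes most correlated with LRRC32. For a nominal lower bound, a dim array took its lowest value well above background, or its own value where higher. Alternatives were normexp correction on the median spot signal (offset 50), quantile normalization, no or a stricter detection filter, all 9 arrays in 1 fit, the deposited table, replicate number or slide as a block, the mean of a gene's probes, and leaving out each array. Slide 2 held OSK-A549-SN replicate 3 alone, so slide and array cannot be told apart. The methods name 3 independent transduction experiments, the labels do not say which arrays share one, and p-values measure the spread between these arrays. The number of arrays limits the precision. TDGF1, on the pathway list, had no probe named here. 1 gene of that list is not reported here and was left out of its counts.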

Additional observations from a re-analysis of the deposited data

How the results depend on the processing

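Of the 280 tested member differences recomputed under the alternatives, 267 kept their sign and side of the threshold and 13 changed sign. In OSK-A549-SN against parental A549, TGFB1 ranged from -0.38 to 0.054 with each array left out, SMAD7 from -0.072 to 0.21, TGFBI from -0.18 to 0.17 and the LTBP1 probe A_33_P3304655 from -0.71 to 0.029. With slide as a block, TGFBI was at 0.10 and that LTBP1 probe at 0.029. Between the transduced groups, TGFBR3 ranged from -0.35 to 0.030 and TGFBR1 from -0.16 to 0.33 with each array left out, and TGFBR1 was at -0.11 with slide as a block. INHBA in OSK-A549-Colony against parental A549, which was not among the tested differences, also changed sign, from -0.095 to 0.38 with each array left out.

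The number of member probes called in OSK-A549-Colony against parental A549 was 1, and it was 0 after normexp correction, 2 under the stricter filter and 0 to 1 with each array left out. The LRRC32 difference of -3.45 was -0.59 after normexp correction and -3.78 to -2.94 with each array left out. Of the pathway list 1 gene was called there, and 2 with all 9 arrays in 1 fit (1 higher and 1 lower). With each array left out the count was 0 to 3. It was 3 without parental replicate 1 (1 higher and 2 lower) and 2 without parental replicate 3 (both higher). In OSK-A549-SN against parental A549 the member count of 0 was 1 (LRRC32) under the stricter filter and with all 9 arrays in 1 fit, and the pathway count of 0 was 1 after normexp correction (PMEPA1) and 2 under each of the other 2 settings (PMEPA1 and FN1). No alternative called a member or pathway gene between the transduced groups. The cause of these differences was not tested.

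With the replicate number as a block, 0 member probes and 0 pathway genes were called in OSK-A549-Colony against parental A549, so that neither LRRC32 nor TPM1 was called, and it changed no other count. Deviations of same-numbered arrays correlated at r = 0.239, 0.0731 and 0.138 for OSK-A549-SN with OSK-A549-Colony. Differently numbered arrays of these groups lay between -0.183 and 0.0297, and every array correlated best with its own number. Same-numbered arrays of these groups also share a passage, and the methods collect both cell types from the same dishes. Pairing of these groups is therefore possible, though no label states it. Correlations of same-numbered arrays lay between -0.0529 and -0.00701 for parental A549 and OSK-A549-Colony. For parental A549 and OSK-A549-SN they lay between -0.196 and 0.150. Not every pair was over 0.1 in any of the 3, so the numbers were not taken to pair the samples. The p-values and intervals between the transduced groups therefore take no account of a possible pairing. LRRC32 in the transduced cells is limited by signal over background, and only its nominal bounds can be read there.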
